A study of Mus musculus with 14 samples.

Results

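Zfp281, a zinc finger transcription factor of mouse embryonic stem cells (ESCs), was absent from 2 of 4 cell lines when they were taken through the first passage of a conversion to extraembryonic endoderm (XEN) cells, and the transcriptomes at that passage are described here. The stage is called cXENp1. It comprised 4 of the 14 libraries of the series: the knockout lines KO2.6 and KO3.34, the wild-type line WT3, and Rescue3.34, which the labels give as KO3.34 with Zfp281 put back. Genes were followed where both knockout libraries lay on the same side of both libraries with Zfp281, in all 4 pairs of a knockout and a Zfp281-present line. Of 13191 genes that passed a filter on low values, 6293 did so: 3582 (27.2% of the genes kept) were higher and 2711 (20.6%) were lower in the knockouts. Over all 23174 rows of the table the count was 7806, of which 1513 did not pass the filter.

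All 4 lines had the strain background 129S1/SVImJ and began as feeder-free ESCs grown with leukemia inhibitory factor. For cXENp1 they were moved to gelatin and XEN medium, which all 4 shared, and then received 0.01 µM all-trans retinoic acid together with 10 ng/mL of activin A over 48 hours. Fibroblast feeders were used only after that. The same lines were also sampled as ESCs and at passage 3 (cXENp3), and the established XEN lines XENB1 and XEN5 gave 1 library each. The labels call the genotypes WT, Zfp281KO and Zfp281KO+Zfp281 Rescue. Each line stands for 1 clone with 1 library a stage. The spread is therefore that between the 2 lines of a group, pooled over the 3 stages. The Zfp281-present group joins the WT and Rescue genotypes. The labels give KO3.34 and Rescue3.34 a shared origin. The title and the cell line field of KO2.6 spell the clone number differently, and the title was followed.

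ESCs keep the pluripotent state of the early embryo, in which Pou5f1, Sox2 and Nanog are the central transcription factors. XEN cells correspond to the primitive endoderm, the lineage of the yolk sac, which is set up by Gata6, Gata4 and Sox17 under signals of the FGF and ERK pathway. Retinoic acid acts through nuclear receptors and turns on genes such as Cyp26a1 and the first Hox genes, and activin A acts through the receptors and Smad proteins that Nodal also uses. Zfp281 binds C-rich DNA and works with chromatin regulators at genes of the pluripotent and primed states.

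Values are FPKM, fragments scaled to the length of the transcript and to the size of the library. They are given in the order KO2.6 and KO3.34 against WT3 and Rescue3.34. Differences are knockout minus Zfp281-present means of log2(FPKM + 1), with n = 2 lines a group, and this scale understates the change of genes at low values. The deposited sums at cXENp1 were 424406 to 520485 FPKM, with 16358 to 16831 genes above 0, and the absolute read depth of the libraries is unknown. From low values, KO2.6, KO3.34 and Rescue3.34 were estimated at about 0.77, 0.84 and 0.85 times the depth of WT3. Zfp281 itself (chr1:138521478-138526968, mm9) had 0 and 1.29 FPKM against 25.1 and 27.2 FPKM, a difference of -4.16 ± 0.72 (SE) (limma, adjusted p = 0.0413). Its level in the 4 libraries followed their labels. All 4 lines differed from their ESC profile. Pou5f1 was at 21.03 to 39.6 FPKM, from 912 to 1312 FPKM in ESCs, and Cyp26a1, which degrades retinoic acid, was at 445 to 649 FPKM, from under 1 FPKM in each ESC library. The endoderm markers were uneven at cXENp1, with Gata4 (on chromosome 14) at 91.2 and 4.57 FPKM against 2.72 and 0.923 FPKM. KO2.6 thus stood apart from the other 3 lines, and results that rest on it are given by line. Rescue3.34 stood apart from KO3.34, the line its label gives as its origin: most genes of chromosome 14 and of a stretch of chromosome 6 were higher in both knockouts than in WT3, and Rescue3.34 was near WT3, with median differences from WT3 of 0.40 and 1.00 in KO3.34 and of 0.02 and 0.06 in Rescue3.34. Why Rescue3.34 differed from KO3.34 there was not tested, and neither was the labelled origin of Rescue3.34. Loss of Zfp281 and these shifts cannot be told apart for genes that lie there.

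Limma called 64 genes between knockout and Zfp281-present lines at cXENp1 at an adjusted p under 0.05 (0.485% of the genes kept), with 48 higher (0.364%) and 16 lower (0.121%) in the knockouts. All 64 had the same sign in all 4 pairs, and 1486 genes had an unadjusted p under 0.05. Single lines moved the count, to 638 when KO3.34 was left out, 7 for KO2.6, 4 for WT3 and 4 for Rescue3.34. Of the 16 lower genes 9 had a mean under 5 FPKM, and none of the 16 was called with a pseudocount of 0.1.

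**Figure D1:**
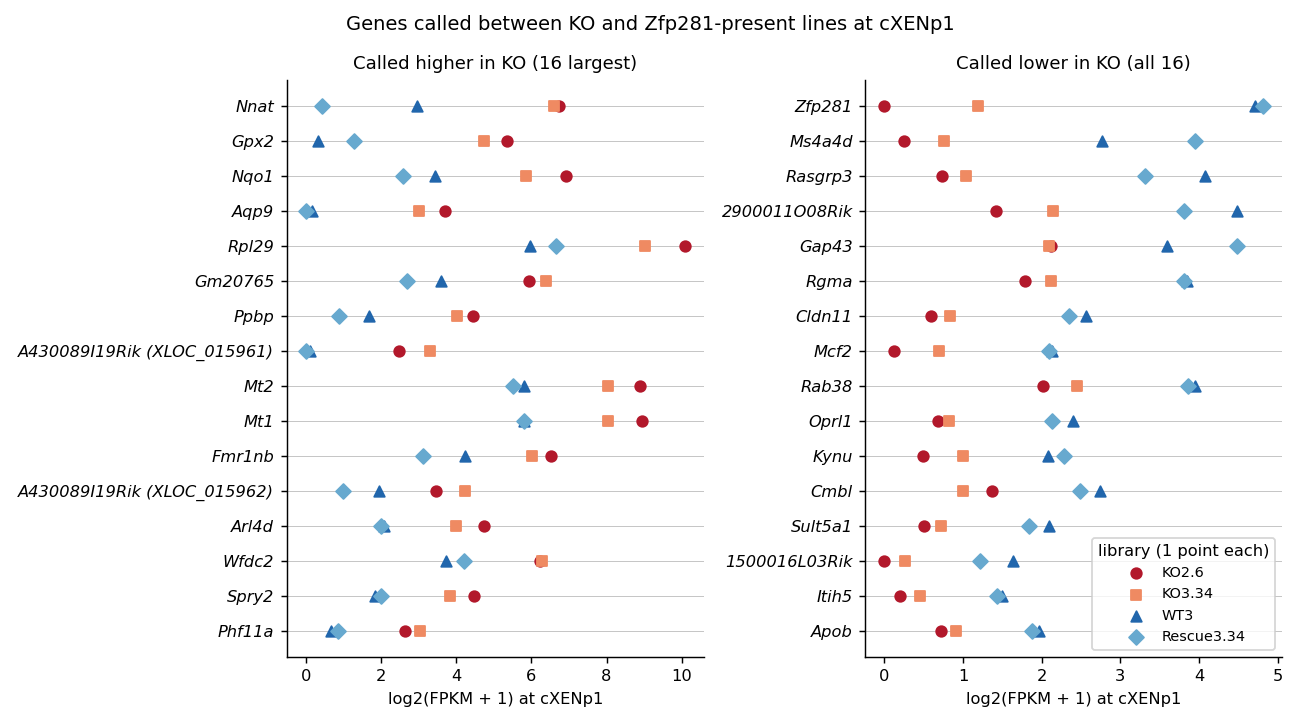
Levels of called genes at cXENp1, as log2(FPKM + 1) on the horizontal axis, with 1 point per library (red circles and orange squares, knockout lines KO2.6 and KO3.34; dark triangles and light diamonds, WT3 and Rescue3.34). Left, the 16 genes with the largest positive difference. Right, all 16 genes called lower. In each row the knockout points lie on 1 side of the others, as in all called genes.

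Rasgrp3, a guanine nucleotide exchange factor that activates Ras and Rap proteins, was the called gene of lowest adjusted p among those lower in the knockouts. It had 0.658 and 1.05 FPKM against 15.9 and 8.92 FPKM, a difference of -2.81 ± 0.28 (SE) (limma, adjusted p = 0.00235). It lies at chr17:75835245-75928393 (mm9). Both knockout libraries were near 1 FPKM, and the groups did not overlap, as in all called genes. Rasgrp3 passed the filter only through cXENp1 libraries, and its spread is pooled with ESC and cXENp3 groups near 0. It was not called with a pseudocount of 0.1 or in the 4 cXENp1 libraries alone (limma, adjusted p = 0.0628 and 0.0962). The difference was -2.7, -3.0, -2.4 and -3.2 without KO2.6, KO3.34, WT3 and Rescue3.34. The level in WT3 and Rescue3.34 was seen at cXENp1 alone: all 4 ESC libraries had at most 0.0365 FPKM, all 4 cXENp3 libraries at most 0.343 FPKM, and XENB1 and XEN5 0.478 and 0.443 FPKM. Of 13 tested exchange factors and GTPase activators of Ras, Rasgrp3 was the member called, 4 members were higher and 2 lower in all 4 pairs, against 27.2% and 20.6% of all genes kept. The list median was -0.14, or 0.08 without KO2.6 and -0.32 without KO3.34, against 0.04 over all genes. Rasgrp1 had 0.398 and 0.434 FPKM against 0.420 and 0.438 FPKM and Sos1 7.29 and 10.5 FPKM against 9.82 and 8.95 FPKM, and the groups overlapped for both.

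Ms4a4d, of a family of membrane-spanning proteins, had 0.184 and 0.698 FPKM against 5.79 and 14.4 FPKM, a difference of -2.85 ± 0.35 (SE) (limma, adjusted p = 0.0117). It too was near 0 at the other stages, with at most 0.955 FPKM. It was the 1 MS4A gene that passed the filter, and it did so only through WT3 and Rescue3.34 at cXENp1. The same holds for Cldn11, Oprl1, Apob, Itih5 and 1500016L03Rik, given below. For these genes the filter favoured a difference of this kind, and the spread is pooled with groups under 1 FPKM. Further genes called lower act in small GTPase signalling, while the GTPases Arl4d and Rab7 were called higher, as given below. Mcf2, a guanine nucleotide exchange factor, had 0.0913 and 0.613 FPKM against 3.38 and 3.26 FPKM, and Rab38, a vesicle transport GTPase, had 3.05 and 4.44 FPKM against 14.5 and 13.5 FPKM. In Ms4a4d, Mcf2 and Rab38 both knockout lines lay below both Zfp281-present lines, which is the rule by which genes were followed.

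Genes known from axon growth were in the same set. Gap43, a growth cone protein, had 3.34 and 3.27 FPKM against 11.1 and 21.3 FPKM, a difference of -1.93 ± 0.32 (SE) (limma, adjusted p = 0.039). Rgma, a membrane-anchored guidance molecule and BMP co-receptor, had 2.47 and 3.33 FPKM against 13.5 and 12.96 FPKM, a difference of -1.87 ± 0.21 (SE) (limma, adjusted p = 0.00703). Gap43 was also lower in the knockouts as ESCs, at 0.493 and 0.211 FPKM against 6.22 and 4.11 FPKM, while Rgma was under 1 FPKM in all 4 ESC libraries. The tight junction protein Cldn11 had 0.505 and 0.784 FPKM against 4.90 and 4.07 FPKM, and Oprl1, the nociceptin receptor, had 0.606 and 0.771 FPKM against 4.26 and 3.38 FPKM. All 4 genes encode proteins of the cell membrane.

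The other genes called lower encode enzymes and secreted proteins or carry provisional names. Kynu, an enzyme of tryptophan breakdown, had 0.409 and 1.00 FPKM against 3.24 and 3.87 FPKM. The hydrolase Cmbl had 1.59 and 1.00 FPKM against 5.66 and 4.62 FPKM and the sulfotransferase Sult5a1 0.420 and 0.646 FPKM against 3.26 and 2.59 FPKM. The 3 enzymes were at most at 1.59 FPKM in the knockouts. Apob, the protein of lipoprotein particles and a yolk sac gene, had 0.652 and 0.873 FPKM against 2.89 and 2.69 FPKM, and Itih5, a hyaluronan-binding serum protein, had 0.147 and 0.371 FPKM against 1.83 and 1.70 FPKM. 2900011O08Rik had 1.67 and 3.42 FPKM against 21.4 and 12.99 FPKM and 1500016L03Rik 0 and 0.196 FPKM against 2.11 and 1.31 FPKM. The differences of these 7 genes ran from -1.11 to -2.37.

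Nnat had the largest difference among genes higher in the knockouts that were not listed at 0 in a whole group. It encodes neuronatin, a small membrane protein of the endoplasmic reticulum, and is imprinted, with expression from the paternal copy. Its level was 106 and 96.6 FPKM against 6.75 and 0.354 FPKM, a difference of 4.98 ± 0.80 (SE) (limma, adjusted p = 0.038). It was not called with a pseudocount of 0.1, without a filter or with a mean of at least 5 FPKM (limma, adjusted p = 0.104, 0.0521 and 0.0536). Nor was it called in the 4 cXENp1 libraries alone (limma, adjusted p = 0.121). The difference was 4.91, 5.04, 6.24 and 3.72 without KO2.6, KO3.34, WT3 and Rescue3.34. Both knockouts lay near 100 FPKM, and WT3 stood above Rescue3.34. As ESCs the lines had 12.5 and 13.5 FPKM against 0.897 and 0.875 FPKM, which had the same order but was not called (limma, adjusted p = 0.0861). At cXENp3 they had 25.5 and 9.51 FPKM against 5.81 and 0.693 FPKM (limma, adjusted p = 0.043). The knockout value peaked at cXENp1 in both lines, and XENB1 and XEN5 had 5.32 and 1.61 FPKM. The table gives Nnat and Blcap, its host gene, the same interval (chr2:157382098-157392097, mm9), and Blcap overlapped between the groups at 19.8 and 20.8 FPKM against 26.02 and 20.1 FPKM. Whether the counting separated them by strand is not given in the sources used here.

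Nnat was the 1 called gene of 28 tested imprinted genes. In that list 4 genes were higher and 6 lower in all 4 pairs, against 27.2% and 20.6% of all genes kept. The median was -0.28, or -0.01 without KO2.6 and -0.62 without KO3.34. The lower ones included genes of the Dlk1 and Meg3 domain, with Dlk1, a Notch ligand homologue, at 3.05 and 4.17 FPKM against 46.97 and 17.02 FPKM and the noncoding RNA Rian at 1.40 and 25.2 FPKM against 72.4 and 27.9 FPKM. Neither passed the test (limma, adjusted p = 0.367 and 0.376), and KO3.34 was close to Rescue3.34 for Rian. Peg10, a retrotransposon-derived gene, was higher at 868 and 725 FPKM against 512 and 277 FPKM without passing (limma, adjusted p = 0.851). Grb10 differed between the knockouts themselves, with 6.12 FPKM in KO2.6 and 206 FPKM in KO3.34.

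Genes of the response to oxidants and metals formed a group among those called higher. The list of 25 such genes was drawn up after their values were seen, so its counts only describe. Of 24 tested, 18 were higher and 0 lower in all 4 pairs, against 27.2% and 20.6% of all genes kept, and 5 were called higher, against 0.364%. The median was 0.93 against 0.04 over all genes, and it was 0.58 without KO2.6 and 1.29 without KO3.34. Gpx2, a glutathione peroxidase, had 39.97 and 25.9 FPKM against 0.247 and 1.42 FPKM, a difference of 4.26 ± 0.50 (SE) (limma, adjusted p = 0.00845). It kept its call when KO2.6 was left out, which 2 other called genes did, Zfp281 and Hsp90ab1, but lost it without WT3 (limma, adjusted p = 0.302), without Rescue3.34 (adjusted p = 0.178) and in the 4 cXENp1 libraries alone (adjusted p = 0.0866). Nqo1, a quinone reductase, had 121 and 57.4 FPKM against 9.87 and 5.05 FPKM, a difference of 3.38 ± 0.56 (SE) (limma, adjusted p = 0.039). Txnrd1, which reduces thioredoxin, had 311 and 399.8 FPKM against 158 and 133 FPKM, a difference of 1.27 ± 0.23 (SE) (limma, adjusted p = 0.0481). Txnrd1 was not called with a pseudocount of 0.1 or a mean of at least 5 FPKM (limma, adjusted p = 0.0731 and 0.0702). With quantile normalization or eBayes without trend it was not called either (limma, adjusted p = 0.0837 and 0.0605). For these 3 enzymes the lowest knockout value exceeded the highest of WT3 and Rescue3.34, as in all genes called higher.

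The metallothioneins Mt1 and Mt2, small cysteine-rich proteins that bind zinc and copper, are neighbours on chromosome 8 (chr8:96696518-96697467 and chr8:96702989-96704227, mm9), and both were called higher in the knockouts. Mt2 had 475 and 261 FPKM against 54.8 and 44.5 FPKM, a difference of 2.81 ± 0.38 (SE) (limma, adjusted p = 0.014). Mt1 had 491 and 264 FPKM against 54.8 and 54.9 FPKM, a difference of 2.69 ± 0.37 (SE) (limma, adjusted p = 0.0167). Mt2 was higher in each line as ESCs, at 1959 and 2489.7 FPKM against 2104 and 1579.8 FPKM, so that its level at cXENp1 was lower than as ESCs in the knockouts as well. The change of the difference between ESC and cXENp1 did not pass the test (limma, adjusted p = 0.189). At cXENp3 Mt2 was at 353 and 662 FPKM against 675 and 464 FPKM and the groups overlapped. Some members that missed the threshold had the same order, such as Cbr3, a carbonyl reductase, at 20.3 and 7.31 FPKM against 1.58 and 1.67 FPKM, and Ftl1, the ferritin light chain, at 6587 and 4606 FPKM against 2224 and 2694 FPKM. Mtf1, the zinc-sensing activator of the metallothioneins, overlapped at 3.00 and 2.81 FPKM against 3.05 and 2.95 FPKM. Nfe2l2, the main activator of Nqo1 and Gpx2, had 57.9 and 31.5 FPKM against 30.6 and 21.8 FPKM with adjusted p = 0.505 (limma).

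The promoters of Mt1 and Mt2 are shown because both neighbours were called higher in the knockouts, that of Nnat for its difference and that of Rasgrp3 for its adjusted p, as given above. The sequences are RefSeq's for GRCm38.p6, from 250 bases before to 50 after the start, on the + strand of that build. Capitals mark TGCACNC or TGCGCNC, the core of the metal response element, on either strand in Mt1 and Mt2, and CCCTCCC, a C-rich word of the kind Zfp281 binds, on either strand in Rasgrp3.
Mt1, chr8:94178839-94179138: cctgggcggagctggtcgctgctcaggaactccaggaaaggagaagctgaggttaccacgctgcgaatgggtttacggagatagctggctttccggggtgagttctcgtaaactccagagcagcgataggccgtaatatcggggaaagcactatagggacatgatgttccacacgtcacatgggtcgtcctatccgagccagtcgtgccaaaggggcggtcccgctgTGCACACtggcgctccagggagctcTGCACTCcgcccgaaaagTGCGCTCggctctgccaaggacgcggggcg
Mt2, chr8:94172368-94172667: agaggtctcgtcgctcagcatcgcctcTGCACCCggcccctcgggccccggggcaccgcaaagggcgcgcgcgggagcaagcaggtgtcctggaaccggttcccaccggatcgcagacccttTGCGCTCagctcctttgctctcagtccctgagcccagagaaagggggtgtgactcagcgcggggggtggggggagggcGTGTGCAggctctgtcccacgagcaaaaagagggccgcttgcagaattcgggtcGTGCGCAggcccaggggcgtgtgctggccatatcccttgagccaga
Rasgrp3, chr17:75465288-75465587: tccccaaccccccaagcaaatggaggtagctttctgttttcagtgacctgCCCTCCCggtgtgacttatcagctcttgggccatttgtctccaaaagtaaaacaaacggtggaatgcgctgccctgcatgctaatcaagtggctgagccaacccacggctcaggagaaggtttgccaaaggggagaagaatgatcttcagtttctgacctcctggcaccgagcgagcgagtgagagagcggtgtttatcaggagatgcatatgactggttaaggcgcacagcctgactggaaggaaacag
Nnat, chr2:157559828-157560127: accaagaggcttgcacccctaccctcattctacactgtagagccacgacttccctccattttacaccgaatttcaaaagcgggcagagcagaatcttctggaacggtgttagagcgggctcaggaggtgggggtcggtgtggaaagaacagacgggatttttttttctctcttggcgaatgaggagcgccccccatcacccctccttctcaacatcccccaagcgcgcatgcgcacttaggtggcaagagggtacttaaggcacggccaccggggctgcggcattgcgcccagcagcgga
Mt1 held 3 metal response cores and Mt2 held 4. Nnat held 4 as well, the first Rasgrp3 start 2 and the second 0, and these are not marked. Such a core occurred in 25.6% of the 27025 promoters of this length and in 37.2% of the 9749 promoters matched to genes kept, and in 9 of the 32 matched promoters of genes called higher and 1 of 10 of genes called lower. CCCTCCC was found 1 time each in the second of 2 Rasgrp3 starts and in Mt2, where it is not marked, and 0 times in the first, in Mt1 and in Nnat. It occurred in 21.3% of all promoters, in 29.3% of those of genes kept, in 13 of the 32 matched promoters of genes called higher and in 4 of 10 of genes called lower. A match describes letters and does not show a bound site.

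Of the FGF and ERK pathway 1 gene was called higher. Spry2, a feedback inhibitor that ERK activity turns on, had 21.1 and 13.2 FPKM against 2.55 and 2.99 FPKM, a difference of 2.23 ± 0.34 (SE) (limma, adjusted p = 0.0268). It lies on chromosome 14, where most genes were higher in both knockouts, by a median of 0.45. Of 18 tested genes of the FGF and ERK pathway, 9 were higher and 1 was lower in all 4 pairs, against 27.2% and 20.6% of all genes kept. The median was 0.41, or 0.56 without KO2.6 and 0.27 without KO3.34. Others of the 9 were the feedback gene Spry4 at 3.12 and 1.49 FPKM against 0.137 and 0.335 FPKM and the ERK-responsive transcription factors Etv4 at 10.6 and 1.21 FPKM against 0.448 and 0.235 FPKM and Egr1 at 14.4 and 30.4 FPKM against 6.43 and 3.41 FPKM. None of these 3 passed (limma, adjusted p = 0.479, 0.4 and 0.218). The receptor Fgfr1 was the lower one, at 23.5 and 37.4 FPKM against 79.3 and 50.8 FPKM.

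Aqp9, a channel for water and glycerol, was called with 12.1 and 7.12 FPKM against 0.116 and 0 FPKM, a difference of 3.29 ± 0.25 (SE) (limma, adjusted p = 0.000395). In all other libraries of the course it had at most 0.256 FPKM. It passed the filter only through the knockout cXENp1 libraries, and its spread is pooled with groups near 0. In the 4 cXENp1 libraries alone it was not called (limma, adjusted p = 0.0866). In the main fit Aqp9 was the called member of 6 tested aquaporins. Ppbp, a platelet-type chemokine, had 20.8 and 15.3 FPKM against 2.21 and 0.853 FPKM, and Wfdc2, a secreted protein of epithelia, had 73.8 and 76.96 FPKM against 12.3 and 17.6 FPKM. Arl4d, a GTPase of the ARF family, had 25.5 and 14.8 FPKM against 3.24 and 2.97 FPKM. Wfdc2 was above both knockout values in the ESC libraries of KO3.34, WT3 and Rescue3.34, at 99.2 to 133 FPKM. Ppbp was listed at 0 in all 4 ESC libraries.

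The remaining genes among the 16 of largest positive difference were of several kinds. Fmr1nb, on the X chromosome, had 90.5 and 64.1 FPKM against 17.96 and 7.73 FPKM and was called at all 3 stages. Phf11a, of the PHD finger family on chromosome 14, had 5.28 and 7.16 FPKM against 0.591 and 0.796 FPKM. Gm20765 and A430089I19Rik have several loci under 1 symbol or near-identical copies, and their values are uncertain. Gm20765 had 59.9 and 82.8 FPKM against 10.98 and 5.45 FPKM, and 2 of the 3 loci of A430089I19Rik were called. Rpl29 had 1080.5 and 521 FPKM against 61.2 and 100.2 FPKM, but ribosomal protein genes share reads with processed copies and the value is uncertain. In XENB1 and XEN5, which both carry Zfp281, Rpl29 was at 1181 and 79.6 FPKM. Among smaller called differences, chosen here after their values were seen, were the kinase Sgk1 at 27.8 and 15.1 FPKM against 5.66 and 4.87 FPKM and Zfp36, which destabilizes mRNAs, at 10.99 and 10.00 FPKM against 2.30 and 1.62 FPKM. Both knockouts lay above both Zfp281-present lines in each, as in all genes called higher.

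A further 5 called genes were listed at exactly 0 in both Zfp281-present cXENp1 libraries, and no fold is given for them. Hsp90ab1, a heat shock protein that all cells use, was listed at 2294 and 2607 FPKM in the knockouts and at 0 in all 6 libraries of WT3 and Rescue3.34 across the course. Snora21 was listed at 142 and 109.9 FPKM and AA792892 at 20.7 and 34.5 FPKM, with 0 in the others. H2-M10.4 and Iqcf1 were the others of this kind, at up to 5.25 and 4.83 FPKM. A 0 in a table of this type can be a failed estimate. Without the 8 genes listed at 0 in 1 group, 56 genes were called.

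The gene lists of the lineage were then compared, with the spread between the knockouts in view. Of 12 tested transcription factors of the primitive endoderm, 0 were called, 3 were higher (Gata4, Sox17 and Cited1) and 1 was lower (Sall3) in all 4 pairs, against 27.2% and 20.6% of all genes kept. Sox17, on chromosome 1, had 32.2 and 7.67 FPKM against 2.38 and 1.95 FPKM and Gata6 43.3 and 6.88 FPKM against 18.2 and 7.04 FPKM. The list median was 0.88, but it was -0.03 without KO2.6 and 1.89 without KO3.34. KO2.6 lay above both Zfp281-present lines for 8 of the 12, and KO3.34 for 4 of them.

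The products of later endoderm showed the same division. Of 16 tested genes of parietal endoderm and basement membrane, 8 were higher and 0 lower in all 4 pairs, against 27.2% and 20.6% of all genes kept, and 0 were called. The median of 1.08 became 0.16 without KO2.6 and 1.87 without KO3.34. Col4a1, a collagen of the basement membrane, had 772 and 51.3 FPKM against 43.6 and 46.05 FPKM, and Krt19, an epithelial keratin, 95.04 and 60.7 FPKM against 21.3 and 24.99 FPKM. Of 11 tested visceral endoderm genes, 5 were higher and 2 lower in all 4 pairs. The receptor gene Cubn had 113 and 2.89 FPKM against 1.28 and 0.313 FPKM, whereas Ttr, a carrier of thyroid hormone and retinol, had 2.38 and 0.388 FPKM against 5.72 and 9.51 FPKM, and Apob was called lower as given above. The summed level of the parietal list was 4405 FPKM in KO2.6 and 859 to 1176 FPKM in the other 3 lines.

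**Figure D2:**
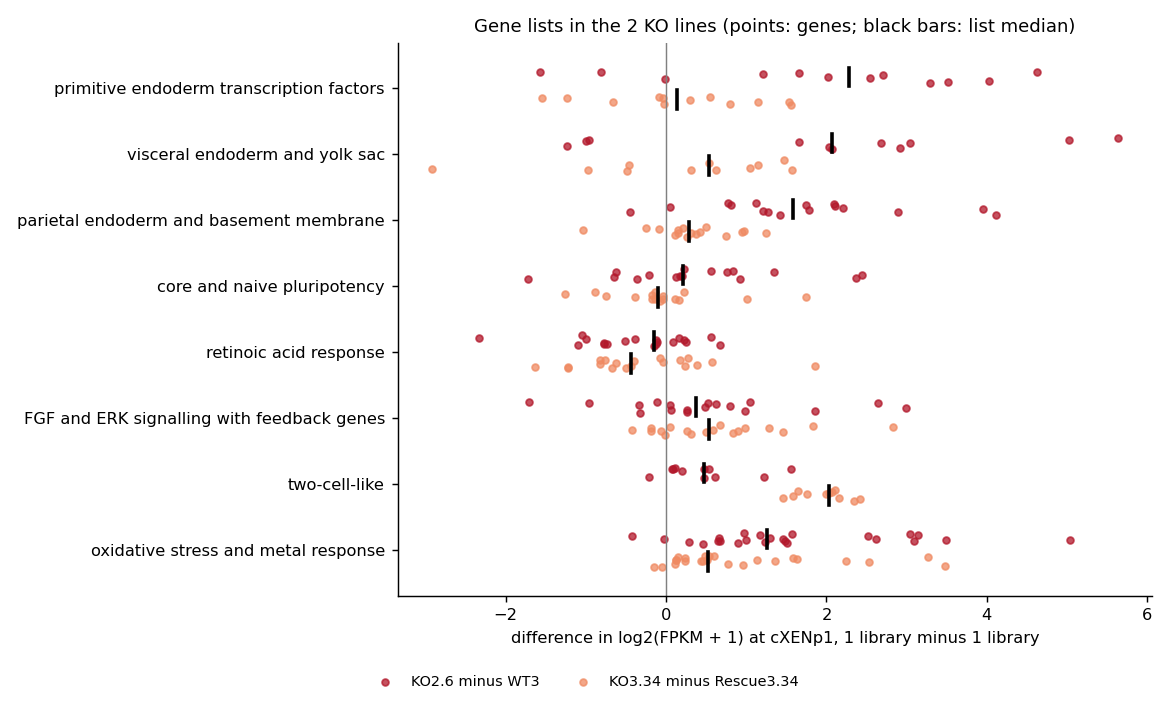
Differences at cXENp1 for each tested gene of 8 lists, as log2(FPKM + 1) of 1 library minus another on the horizontal axis (red, KO2.6 minus WT3; orange, KO3.34 minus Rescue3.34; black bars, medians). The 3 endoderm lists lie to the right mainly in KO2.6, and the oxidant and metal genes have medians of 1.26 and 0.53 in the 2 comparisons.

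Pluripotency genes held no called member at cXENp1. Of 16 tested, 3 were higher and 2 lower in all 4 pairs, against 27.2% and 20.6% of all genes kept. The median was 0.15, or -0.000193 without KO2.6 and 0.18 without KO3.34. Klf5, on chromosome 14 among the genes shifted in both knockouts, had 51.3 and 28.1 FPKM against 8.61 and 7.69 FPKM and Sox2 5.35 and 16.4 FPKM against 19.96 and 40.8 FPKM, which were the widest in each direction (limma, adjusted p = 0.142 and 0.507). Of 14 tested genes of the formative and primed epiblast, 2 were higher and 2 lower and 0 were called. Dnmt3a, a DNA methyltransferase, had 8.60 and 14.04 FPKM against 30.1 and 22.4 FPKM (limma, adjusted p = 0.187).

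The 2 signals added to the medium were read through their targets. Of 19 tested genes of the retinoic acid response, 1 was higher and 9 were lower in all 4 pairs, against 27.2% and 20.6% of all genes kept, 0 were called, and the median was -0.36. Hoxb1 had 23.3 and 41.6 FPKM against 50.95 and 74.2 FPKM, Crabp2, which carries retinoic acid to its receptor, 154 and 206 FPKM against 256 and 279 FPKM, and Stra6, a retinol transporter, 22.2 and 11.2 FPKM against 38.6 and 27.6 FPKM. The ranges of Cyp26a1 overlapped. Of 18 tested genes of the Nodal and activin pathway, 4 were higher and 6 lower in all 4 pairs, against 27.2% and 20.6%, and 0 were called. The median of this list was -0.27. By line it was -0.28 for KO2.6 minus WT3 and 0.00043 for KO3.34 minus Rescue3.34. The targets Nodal and Lefty2 had 11.5 and 12.4 FPKM against 18.01 and 37.9 FPKM and 6.27 and 11.6 FPKM against 25.5 and 53.2 FPKM, with Rescue3.34 the highest for both. Lefty2 lies on chromosome 1, where the median difference from WT3 was -0.52 in KO2.6. In neither list did limma give an adjusted p under 0.05 for a member.

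Genes of the 2-cell-like state, a rare state of ESC cultures, were higher in the knockouts in all 4 pairs for 10 of 11 tested members, against 27.2% of all genes kept, with 0 called. The median was 1.27, or 1.53 without KO2.6 and 0.76 without KO3.34. Zscan4c had 49.96 and 79.5 FPKM against 47.6 and 22.8 FPKM and Zfp352 7.41 and 4.33 FPKM against 1.85 and 0.707 FPKM (limma, adjusted p = 0.604 and 0.0549). By line it was 0.48 for KO2.6 minus WT3 and 2.03 for KO3.34 minus Rescue3.34, and that of Rescue3.34 minus WT3 was -1.05. These are families of near-identical copies, so the values of single members are uncertain. Feeder fibroblast genes were measured as well, since Col1a2 had 0.563 and 2.74 FPKM against 38.5 and 27.9 FPKM (limma, adjusted p = 0.273). Of 10 tested, 2 were higher and 2 lower in all 4 pairs, against 27.2% and 20.6% of all genes kept, with a median of -0.09. The summed levels were 18.1 to 74.2 FPKM, highest in WT3, where Col1a2 gave 38.5 of the 74.2 FPKM. Col3a1 was at most 3.01 FPKM and Postn at most 0.436 FPKM in the 4 libraries, and the part of such cells in the genes named was not tested.

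The same lines at the other stages show how far the cXENp1 differences were shared. The ESC comparison called 1.05% of genes higher and 0.917% lower in the knockouts, 260 genes in all, and 114 without those of chromosomes 1 and 14 and of the chromosome 6 stretch. Leaving out WT3 or Rescue3.34 left 1 call each, KO2.6 42 and KO3.34 1993. Of the 3582 genes higher in all 4 pairs at cXENp1, 103 were called higher and 14 lower as ESCs, and 1196 (33.4%) were higher in all 4 pairs there, against 25.3% of all genes. Of the 2711 lower genes, 55 were called lower and 5 higher as ESCs, and 996 (36.7%) were lower in all 4 pairs, against 27.9% of all genes. The overlaps given here and below include the genes of those regions. Of 8713 genes with a mean of at least 5 FPKM at cXENp1, 119 were called higher as ESCs. Of these, 29 lie on chromosome 14 and 32 in the chromosome 6 stretch. The ESC library of KO2.6 carries another prefix in its description than the other 3 ESC libraries, and what the prefix marks is not stated.

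Of the 48 genes called higher at cXENp1, 8 were called higher as ESCs and 0 lower. Of the 16 called lower, 4 were called lower as ESCs: Zfp281, 2900011O08Rik, Gap43 and Sult5a1. A change of the difference between ESC and cXENp1 was called for 5 genes (0.0379%). These were Aqp9, with 3.14 ± 0.36 (SE) (limma, adjusted p = 0.0184), 1 locus of A430089I19Rik, and Snora21, AA792892 and H2-M10.4, which are listed at 0. With the replicate block on line, A430089I19Rik and H2-M10.4 lost this call (limma, adjusted p = 0.0901 and 0.0579). All 5 genes passed the filter on low values only through knockout libraries, so the filter favoured a difference of this kind. Rasgrp3 changed by -2.78 ± 0.39 (SE) and missed the threshold (limma, adjusted p = 0.0635).

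**Figure D3:**
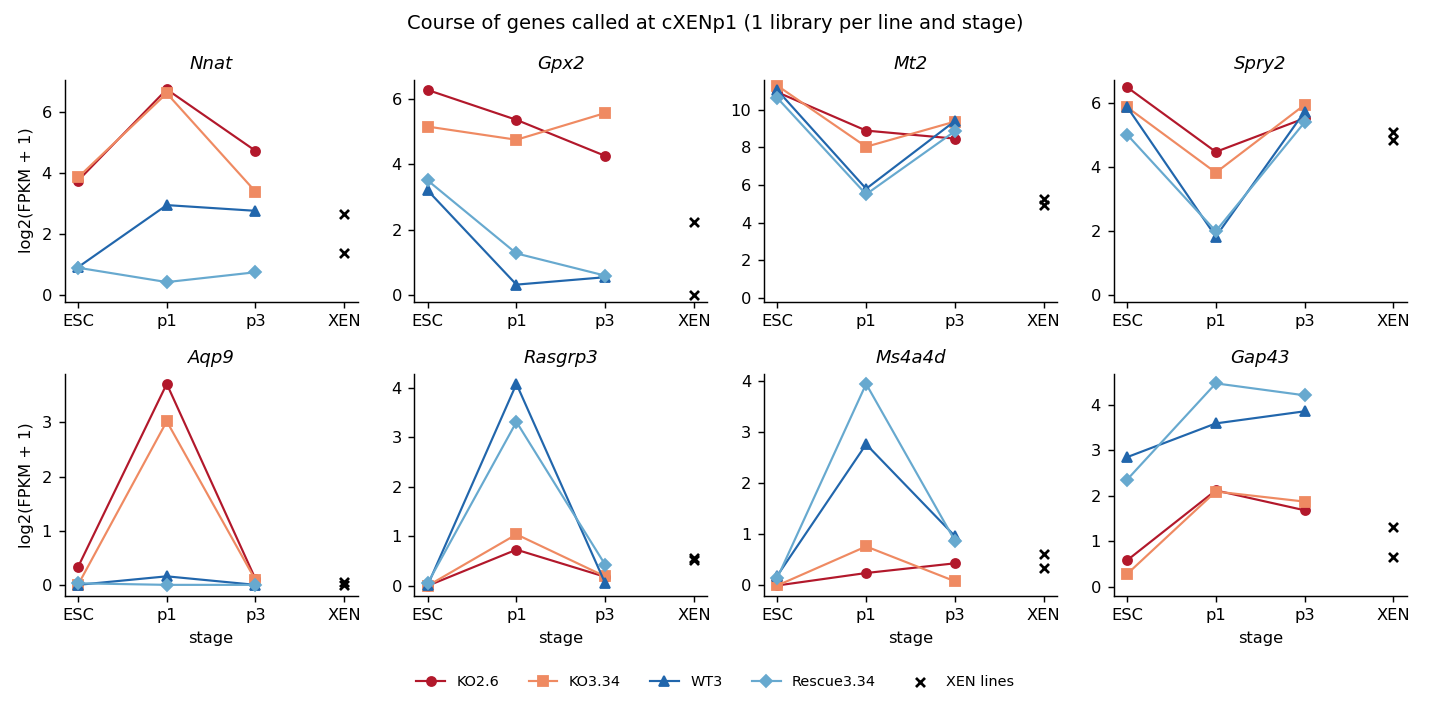
Course of 8 genes called at cXENp1, as log2(FPKM + 1) on the vertical axis against stage, with 1 library per line and stage and crosses for XENB1 and XEN5. Aqp9 and Rasgrp3 are above 1 FPKM at cXENp1 alone, Mt2 and Spry2 are lowest among the libraries of the 4 lines in WT3 and Rescue3.34 at cXENp1, Mt2 is lower still in XENB1 and XEN5, and Gap43 is lower in the knockouts at all 3 stages.

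At cXENp3 the comparison called 22.9% of genes higher and 19.0% lower in the knockouts, 5528 genes in all, against 1057 without WT3 and 2875 without Rescue3.34. Gata4 was at 323 and 410.2 FPKM against 1.11 and 0.230 FPKM and Pou5f1 at 47.4 and 189 FPKM against 1313 and 685 FPKM, so that WT3 and Rescue3.34 carried ESC genes and little endoderm expression at the passage labelled cXENp3. Of the 3582 higher genes, 1326 (37.0%) were called higher and 344 lower at cXENp3. Of the 2711 lower genes, 842 (31.1%) were called lower and 284 higher. Of the 48 genes called higher at cXENp1, 19 were called higher again and 0 lower, and of the 16 called lower, 6 were called lower again and 0 higher. The difference changed between cXENp1 and cXENp3 for 11.4% of genes and for 29 of the 48 and 9 of the 16. The 1510 genes behind that share became 974 without KO2.6, 2362 without KO3.34, 5 without WT3 and 171 without Rescue3.34. The 48 and 16 genes were chosen by cXENp1 values that also enter the change from cXENp1 to cXENp3. Higher shares among them are therefore expected in part from the choice. Among them, Mt2 changed by -3.02 ± 0.53 (SE), Spry2 by -2.06 ± 0.49 (SE) and Rasgrp3 by 2.76 ± 0.39 (SE) (limma, adjusted p = 0.0106, 0.0276 and 0.00496).

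Genes higher in both knockouts were gathered on some chromosomes, a pattern seen after the values and measured over 8713 genes with a mean of at least 5 FPKM at cXENp1. On chromosome 14, 70.7% of 324 genes were higher and 1.85% lower in all 4 pairs, against 27.9% and 19.8% over all 8713. The median difference from WT3 was 0.53 in KO2.6, 0.40 in KO3.34 and 0.02 in Rescue3.34. On chromosome 1, where Zfp281 lies, the median difference from WT3 was -0.52 in KO2.6, 0.02 in KO3.34 and 0.05 in Rescue3.34. The 16 autosomes other than 1, 6 and 14 had median knockout differences of -0.01 to 0.11. The same shifts were present in ESCs, where chromosome 14 had medians of 0.45 and 0.60 in KO2.6 and KO3.34 and chromosome 1 had -0.49 in KO2.6 and 0.12 in KO3.34.

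**Figure D4:**
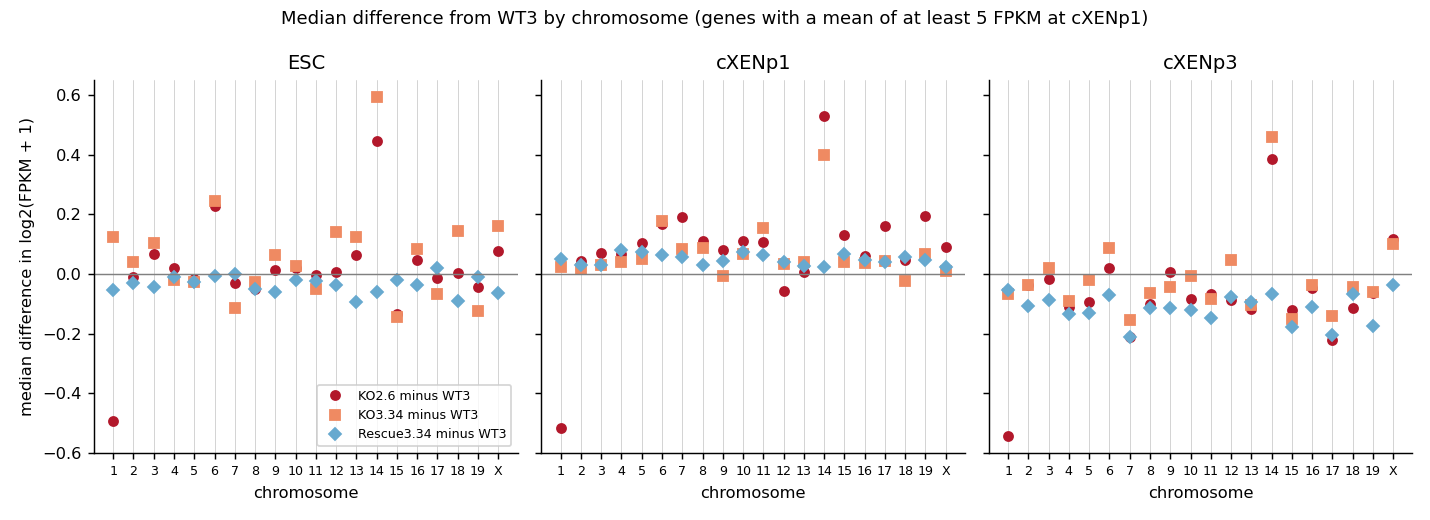
Median difference from WT3 in log2(FPKM + 1) by chromosome at the 3 stages (circles, KO2.6; squares, KO3.34; diamonds, Rescue3.34). Chromosome 14 is raised in both knockouts and chromosome 1 is lowered in KO2.6 at each stage. Rescue3.34 stays within 0.02 to 0.08 at cXENp1 over the autosomes and X, and the Y chromosome is not shown.

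The densest stretch lay on chromosome 6 between 70 and 95 Mb (mm9). Of its 88 genes with a mean of at least 5 FPKM, 81 (92.0%) were higher and 0 lower in all 4 pairs, with a median of 0.99. The medians from WT3 were 1.12 in KO2.6, 1.00 in KO3.34 and 0.06 in Rescue3.34. As ESCs they were 1.09, 0.91 and -0.04, and 32 of the 88 were called higher there. Outside the stretch 25.2% of 298 chromosome 6 genes were higher and 25.2% lower, with a median of 0.01. Of the 48 genes called higher at cXENp1, 11 lie in the stretch. Rab7, a GTPase of late endosomes, had 139.96 and 111 FPKM against 34.04 and 42.5 FPKM, Sec61a1, of the channel into the endoplasmic reticulum, 177 and 101 FPKM against 45.7 and 48.3 FPKM, and Tmsb10, an actin-binding peptide, 1049 and 1126 FPKM against 283 and 447 FPKM. The others were Copg1, Aup1, Tpra1, Slc6a6, Htra2, Tex261, Cml2 and 2310040G24Rik. DNA copy number was not measured in these libraries, and its part in these shifts was not tested. Without the genes of chromosomes 1 and 14 and of the stretch, 46 genes were called.

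**Figure D5:**
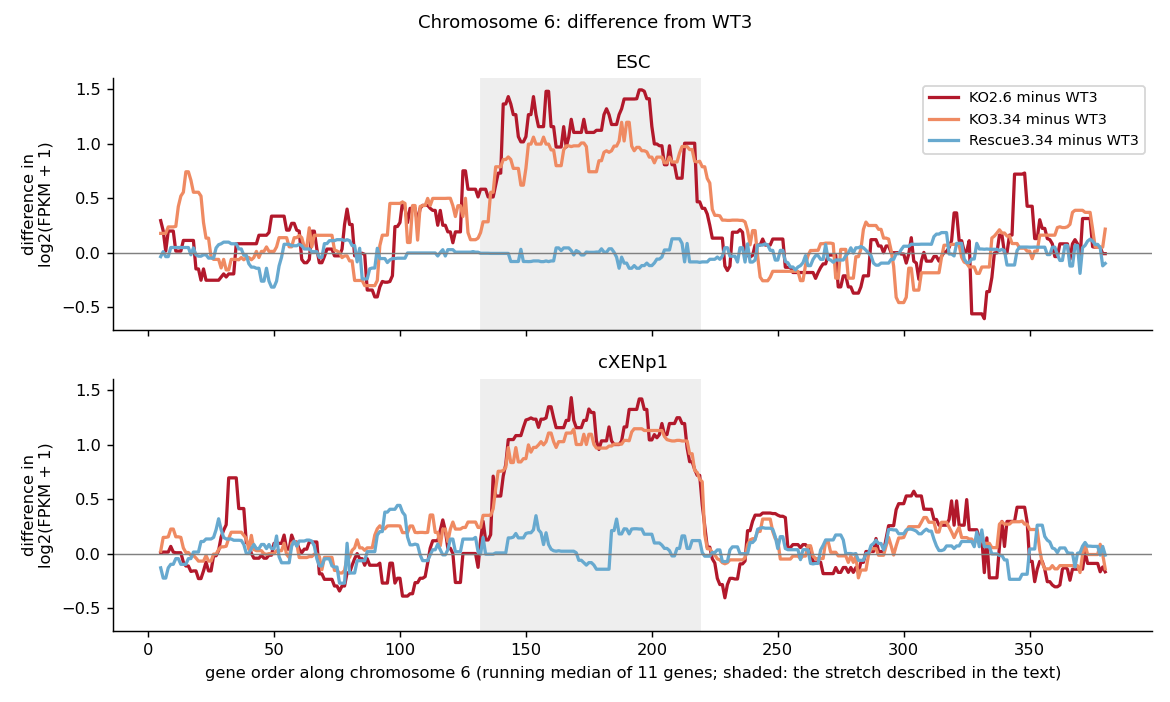
Running median over 11 genes of the difference from WT3 in log2(FPKM + 1), against gene order along chromosome 6, in ESCs and at cXENp1 (red, KO2.6; orange, KO3.34; light blue, Rescue3.34; shaded, the stretch from 70 to 95 Mb). Both knockouts lie near 1 inside the stretch at both stages, and Rescue3.34 lies near 0.

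At the limit of the rule, differences were small. Among genes with a mean of at least 5 FPKM, Ctps (38.9 and 41.3 FPKM against 41.3 and 46.2 FPKM) and Nol8 (7.85 and 9.46 FPKM against 9.46 and 10.9 FPKM) lay just inside it, with 1 knockout value next to that of WT3. Hadhb (32.5 and 33.2 FPKM against 35.5 and 33.2 FPKM) and Copg2 (12.98 and 24.4 FPKM against 24.4 and 30.6 FPKM) lay just outside. The median size of the difference was 0.47 among the 3582 higher and 0.39 among the 2711 lower genes, and a same sign in 4 pairs therefore does not by itself mark a large difference.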

How the data were processed

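Poly(A) RNA was sequenced as paired reads of 150 bp on a HiSeq4000, per the labels' protocols. The authors deposited 1 table of FPKM values for 23174 gene loci and 14 libraries. The submitters' processing notes name STAR 2.5.3, Cufflinks 2.1.1 and mm9, without roles. Coordinates are the table's, counted from 1. FPKM holds no counts and whole reads could not be recovered. From steps of low values the cXENp1 libraries KO2.6, KO3.34 and Rescue3.34 had about 0.77, 0.84 and 0.85 times the depth of WT3.

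Genes with at least 1 FPKM in 2 of 12 course libraries were kept (13191). Values were fitted as log2(FPKM + 1) with limma 3.58.1 in R 4.3.3 (lmFit, eBayes with trend), in 6 groups of 2 libraries that share 1 spread with 6 residual degrees of freedom, and p-values were adjusted by Benjamini-Hochberg over all genes kept. A gene was called at an adjusted p under 0.05. Exact permutation of 2 lines against 2 cannot go below p = 0.33 and was not used. On simulated data for the cXENp1 comparison with 13191 genes, 83.5% of 200 genes with a log2 change of 2 were recovered, with 13 false calls. The changed genes had a mean log2(FPKM + 1) above 2 at cXENp1, and the noise was independent between libraries. The simulation therefore does not cover changed genes at low values, or shifts shared by a line or a chromosome. None of the 4 cXENp1 libraries held values identical to those of another.

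The members, gene lists and tests were chosen with earlier results of these data known. Named genes are Zfp281, Nnat and Rasgrp3, up to 16 called genes each way by size, genes listed at 0 in 1 group, genes of the ESC interaction, and called or widest list members. Other genes were named after their values were seen, and some items are not reported here. Lists covered pluripotency, primed epiblast, endoderm (3), retinoic acid, Nodal, mesendoderm, neural, trophoblast, imprinted, Ras regulators, FGF and ERK, MS4A, aquaporins, Zfp281 partners, 2-cell-like, feeder fibroblast, smooth muscle and Y-linked genes. The labels tie libraries of 1 line across stages, so line was used as a replicate block in an alternative; the deviations of KO2.6 from its group mean correlated by 0.35 between ESC and cXENp1, and those of WT3 by -0.05.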

Additional observations from a re-analysis of the deposited data

Results flagged for a closer look

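The difference between knockout and Zfp281-present lines was not the same at each stage for the following genes, by the interaction in limma at an adjusted p under 0.05. Values are the later minus the earlier difference in log2(FPKM + 1).

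Between ESC and cXENp1 the difference rose by 3.14 for Aqp9 and by 2.82 for 1 locus of A430089I19Rik. Both passed the filter on low values only through knockout libraries. Between cXENp1 and cXENp3, differences that had been positive fell. For Wfdc2, Gm20765, Mt2, Phf11a and 1 locus of A430089I19Rik the fall exceeded the cXENp1 difference, so the sign changed. Those differences had been 2.28, 3.02, 2.81, 2.08 and 2.37. For genes called at cXENp1, smaller differences of either sign at another stage are expected in part from the choice of genes. The change was -3.19 for Aqp9, -3.42 for Gm20765, -2.04 for Ppbp, -2.81 and -2.41 for the loci of A430089I19Rik, -3.02 for Mt2, -3.26 for Wfdc2, -2.06 for Spry2, -2.3 for Phf11a and -1.22 for Txnrd1. Differences that had been negative became smaller in size: by 2.76 for Rasgrp3, 2.19 for Ms4a4d, 1.27 for Rgma, 1.62 for Cldn11, 1.36 for Oprl1, 1.4 for Kynu, 1.29 for 1500016L03Rik, 1.02 for Itih5 and 1.09 for Apob. Of these, Ms4a4d, Cldn11, Oprl1, 1500016L03Rik, Itih5 and Apob passed the filter only through WT3 and Rescue3.34 at cXENp1. With the replicate block on line, Itih5 and Apob missed the threshold (limma, adjusted p = 0.0644 and 0.0512).

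Among list members that were not called at cXENp1, pluripotency and epiblast genes changed by -4.07 (Utf1), -2.7 (Klf2) and -1.77 (Zic2). Nodal pathway genes changed by -4.94 (Lefty2) and -4.9 (Tdgf1). Endoderm genes changed by 4.47 (Sox17), 3.71 (Krt8), 2.48 (Ttr) and -3.54 (Apoe). Col4a1 and Col4a2 changed by -7.46 and -6.66, but both are listed at 0 in the cXENp3 libraries of KO2.6 and KO3.34, where Lamb1 was at 1987 and 2933 FPKM, so these values are not read as a fall. Further changes were 5.9 for Stra6, 6.86 for Aqp8, -2.29 for Aqp3, 1.81 for Lhx1, 1.05 for Pax3, which missed the threshold with the block (limma, adjusted p = 0.0627), and -1.67 for Zfp352.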

How the results depend on the processing

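The count of genes called at cXENp1 (64; 48 higher and 16 lower) was 19, 19 and 0 with a pseudocount of 0.1, 13, 13 and 0 with a mean of at least 5 FPKM over the 12 libraries, where 3 of the 16 lower genes were tested, 136, 79 and 57 without a filter, and 3, 3 and 0 in the 4 cXENp1 libraries alone. Quantile normalization gave 100 in all and 36 lower. With the replicate block on line the count was 65, and all 64 genes were among them; it was 5538 for cXENp3 and 4 and 1583 for the interactions with ESC and cXENp3, where it ended calls that are given above with their p. Leaving out KO2.6, KO3.34, WT3 or Rescue3.34 gave 7, 638, 4 and 4 in all, 4, 469, 4 and 3 higher, and 3, 169, 0 and 1 lower. For ESCs quantile normalization gave 160 against 260, leaving out each line in the same order gave 42, 1993, 1 and 1, and dropping the genes of chromosomes 1 and 14 and the chromosome 6 stretch, a setting added once the data had been seen, gave 114. For cXENp3, with 5528 calls, leaving out each line gave 3765, 6150, 1057 and 2875. The 5 interaction calls of cXENp1 with ESC became 1 with a pseudocount of 0.1, 26 without a filter, 1 with a mean of at least 5 FPKM, 3 with quantile normalization and 2, 52, 1 and 1 with the lines left out in that order. The 1510 interaction calls of cXENp3 with cXENp1 became 974, 2362, 5 and 171. Fewer libraries or fewer genes enter several of these fits; otherwise the cause was not tested. None of the 64 genes had the opposite sign in an alternative in which it was tested. Their same sign in all 4 pairs fixed this in advance, except under quantile normalization.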

Other observations

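Markers of other cell fates held no called gene at cXENp1. The counts below stand against 27.2% higher and 20.6% lower in all 4 pairs among all genes kept. Of 8 tested neural progenitor genes, 3 were higher and 1 lower in all 4 pairs, with Pax6, a neural transcription factor, at 4.55 and 4.03 FPKM against 16.4 and 9.77 FPKM (limma, adjusted p = 0.125). Of 9 tested trophoblast genes 2 were higher and 1 lower, and of 5 tested mesendoderm genes 1 was higher and 1 lower, with Lhx1 at 0.790 and 1.03 FPKM against 7.74 and 3.18 FPKM (limma, adjusted p = 0.0549). Of 10 tested smooth muscle genes 3 were higher and 2 lower, with Tagln at 122 and 219 FPKM against 172 and 150.3 FPKM. Of 21 tested partners of Zfp281 and chromatin regulators, 3 were higher, 2 lower and 0 called, with Tet1 at 5.02 and 5.85 FPKM against 5.21 and 2.79 FPKM and Ezh2 at 43.6 and 55.4 FPKM against 49.4 and 56.8 FPKM.

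The 3 tested Y-linked genes were lower in the knockouts in all 4 pairs, against 20.6% of all genes kept. Eif2s3y had 0 and 5.79 FPKM against 56.1 and 34.4 FPKM and Ddx3y 0 and 5.10 FPKM against 24.7 and 6.56 FPKM (limma, adjusted p = 0.0751 and 0.431). All 3 were listed at 0 in the ESC and cXENp1 libraries of KO2.6.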
